A study of Mus musculus with 10 samples.

Results

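The 8 genes described here are the receptors for IL-33, IL-18 and IL-1 and their shared machinery: Il1rl1, Il18r1 and Il1r1 (ligand-binding chains), Il1r2 (decoy receptor), Il1rap and Il18rap (co-receptors), Sigirr (inhibitory receptor) and Myd88 (adaptor). They were taken by symbol, as the IL-1 receptor family and its adaptor, and are 8 of the 22815 symbols in the count table. Of the 8, 7 passed the filter on low counts that left 10533 genes to test, and Il1r1 did not. The RNA came from flow-sorted mast cells of the lower airway of wild type C57BL/6 mice aged 5 to 7 weeks. The 4 groups are B7hi cells after HDM (n = 3), B7hi cells after PBS (n = 2), B7low cells after HDM (n = 3) and B7low cells after PBS (n = 2). HDM is house dust mite extract, an allergen mixture, given into the nose at 3 µg in 20 µL, 2 times a week for 3 weeks. PBS is the saline vehicle in the same volume. The series title speaks of inducible and constitutive mast cells, and in published work on these cells the name B7 stands for an integrin chain that is high on the inducible population. All groups were bulk sorts, so fewer cells that carry a transcript and less transcript per cell cannot be told apart. The labels do not say whether libraries came from separate animals or from pools, so each p-value measures the spread between libraries, which may be partly technical.

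IL-33 is an alarm cytokine released by damaged or stressed barrier cells, and mast cells are among its main responders in the airway. It binds ST2, the product of Il1rl1, which pairs with the accessory chain IL-1RAcP, the product of Il1rap. The intracellular TIR domains of the pair then recruit MyD88 and IRAK kinases and activate NF-kB and MAP kinases. IL-18 uses the same scheme with the products of Il18r1 and Il18rap, and IL-1 uses those of Il1r1 and Il1rap. IL-1R2, the product of Il1r2, binds IL-1 but has no signalling TIR domain, which is why it is called a decoy. SIGIRR dampens signalling by these receptors.

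The promoters of Il1rl1 and Il1r2 are shown because these genes gave the clearest differences between the populations. RefSeq windows of 250 bases before to 50 after the start, on build GRCm38.p6, were found for 7 of the 8 genes, in 11 windows, and Sigirr had none. In mouse mast cells, transcription of Il1rl1 is known to start mainly at the distal of its 2 promoters. Capitals mark GATAA, the core of a GATA factor site, read on both strands (TTATC on the other strand), in the Il1rl1 windows, and CACGTG, the palindromic E-box bound by MITF and related factors, in the Il1r2 window. All 3 windows are on the plus strand, and the Il1r2 window lies inside the GENCODE gene, after its first annotated start.
Il1rl1 distal promoter, chr1:40429320-40429619: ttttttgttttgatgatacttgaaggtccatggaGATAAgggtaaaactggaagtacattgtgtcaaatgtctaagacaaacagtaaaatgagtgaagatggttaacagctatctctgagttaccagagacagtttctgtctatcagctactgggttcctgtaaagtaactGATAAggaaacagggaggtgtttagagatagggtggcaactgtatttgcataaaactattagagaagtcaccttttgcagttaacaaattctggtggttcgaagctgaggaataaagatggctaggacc
Il1rl1 proximal promoter, chr1:40439379-40439678: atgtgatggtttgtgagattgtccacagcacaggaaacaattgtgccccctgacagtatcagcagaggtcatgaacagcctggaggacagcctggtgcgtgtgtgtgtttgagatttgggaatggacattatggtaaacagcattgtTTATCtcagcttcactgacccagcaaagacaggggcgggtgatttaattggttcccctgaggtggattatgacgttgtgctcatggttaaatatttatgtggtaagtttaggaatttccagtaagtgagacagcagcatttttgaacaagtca
Il1r2 promoter, chr1:40085843-40086142: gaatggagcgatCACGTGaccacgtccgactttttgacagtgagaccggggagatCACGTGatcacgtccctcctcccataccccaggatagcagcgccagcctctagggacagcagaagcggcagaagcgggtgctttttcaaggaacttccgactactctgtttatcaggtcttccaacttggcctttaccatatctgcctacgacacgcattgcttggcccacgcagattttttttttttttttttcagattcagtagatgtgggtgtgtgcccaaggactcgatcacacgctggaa
The distal Il1rl1 window held 2 GATAA matches and the proximal window held 1. Of the 32851 RefSeq promoter windows of this length, 25.4% held GATAA at least once and 5.27% at least 2 times. The Il1r2 window held 2 CACGTG matches, a motif found in 7.15% of windows and at least 2 times in 0.594%. It also held 1 GATAA match and 1 TTCNNNGAA match (N is any base), left in lower case. The 11 windows were also read for TGANTCA, TTCNNNGAA and GAGGAAG, motifs of AP-1, STAT factors and PU.1. Repeats occurred there too, with 2 GAGGAAG in the Il18rap window and 2 TTCNNNGAA in 1 Il18r1 window. As several motifs were read in several windows, the shares above do not test whether a repeat is unusual. These matches describe the letters of the windows and nothing about binding.

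Libraries held between 525983 (B7hi HDM 2) and 1725818 (B7hi PBS 2) counts, so that 3 counts, the limit that a count of 0 allows, stand for 1.57 to 5.87 CPM, the count scaled to a common library total. Mast cell markers were abundant in all 10 libraries. Kit, the stem cell factor receptor, averaged 3793 ± 1489 CPM in B7hi HDM, 3331 ± 901 in B7hi PBS, 4411 ± 529.9 in B7low HDM and 5349 ± 414 in B7low PBS. The 10 mast cell markers summed to 14872 to 33616 CPM in B7hi libraries and to 50056 to 95286 CPM in B7low libraries. This sum was lower in every B7hi library than in any B7low library, as Il1rl1 was, and its part in the differences below was not tested. Both B7hi HDM 2 and B7low PBS 2 stood apart in the nuclear noncoding RNA Kcnq1ot1, at 12133 and 6956 CPM, beside 806 to 2794 CPM in the other 8 libraries, and results below were also computed without the pair. The ribosomal precursor Rn45s took 19.7% and 21.6% of counts in B7hi PBS, against 27.2% and 28.9% in B7low PBS. The calls of the 7 genes tested were the same with Rn45s left out. Levels below are CPM of the TMM-scaled library size, and fold changes and adjusted p-values come from edgeR over all 10533 genes.

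After PBS, B7hi cells had more Il1r2 and less Il1rl1 than B7low cells, the 2 calls among the 7 genes tested. That is 1 gene higher, against a background of 2.91% of all genes, and 1 lower, against 3.64%, or 2 of 7 beside 6.54% called in either direction. An unadjusted p under 0.05 was seen for 3 of the 7 (Il18r1 too), beside 21.2% of all genes. After HDM, 0 of the 7 passed, against backgrounds of 0.693% higher, 2.15% lower and 2.84% in either direction, although 3 of them had an unadjusted p under 0.05, beside 13.6% of all genes. DESeq2 called 1 of these (Il18rap) and limma-voom called 2 (Il1rl1 and Il1r2). For HDM over PBS, 0 of the 7 passed in B7hi or in B7low cells, where the background was 0.00949% (1 gene) in each. Unadjusted p was under 0.05 for 1 gene in B7hi (Il1rl1), beside 4.13% of all genes, and for 2 in B7low (Il1r2 and Il18rap), beside 9.08%. DESeq2 called 1 in each (Il1rl1 in B7hi, Il18rap in B7low) and limma-voom called 0. For the difference between the HDM effects 0 of the 7 passed, and 3 (Il1rl1, Il1r2 and Il18rap) had an unadjusted p under 0.05, beside 8.55% of all genes. DESeq2 called 1 of them (Il1rl1) and limma-voom 0. Averaged over PBS and HDM, Il1r2 was higher and Il1rl1 and Il18r1 were lower in B7hi than in B7low cells, against backgrounds of 5.80% higher, 6.08% lower and 11.9% in either direction.

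**Figure D1:**
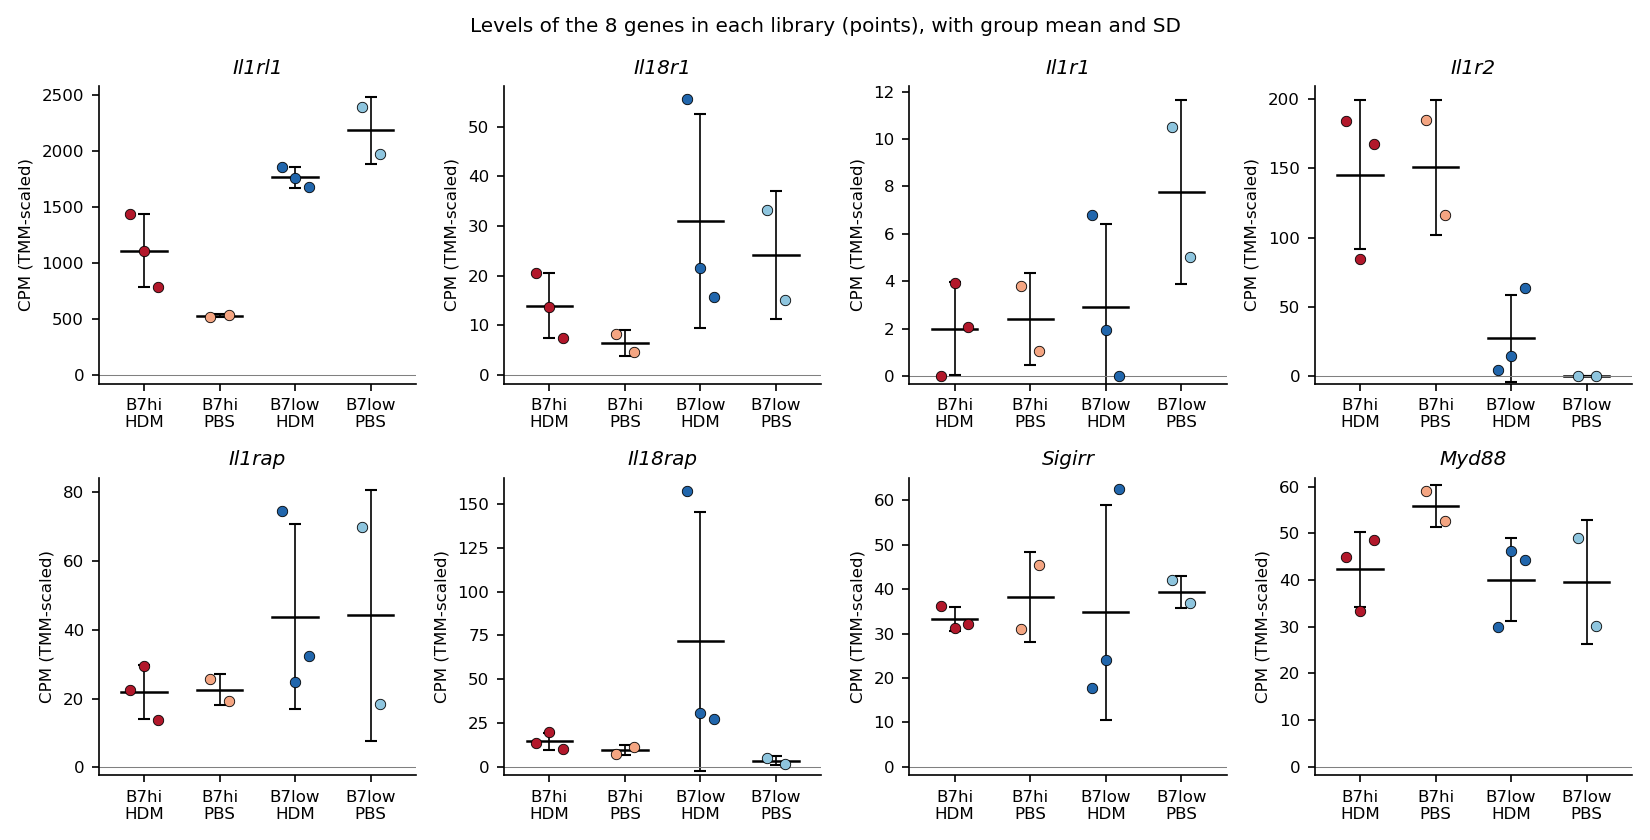
Level of each of the 8 genes in CPM (vertical axis, linear, own scale per gene) in each library (points), by group (horizontal axis), with the group mean (bar) and SD (whiskers, n = 3 for HDM and n = 2 for PBS). Il1rl1 is at 1439 CPM or less in the B7hi libraries and at 1678 CPM or more in the B7low libraries, while Il1r2 is at 84.2 CPM or more in the B7hi libraries and at 0 in both B7low PBS libraries.

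Il1rl1, the IL-33 receptor chain, was the most abundant of the 8 and its B7hi and B7low libraries did not overlap, as for 9.40% of all genes. It had 1439, 1112 and 792 CPM in B7hi HDM, 521 and 541 in B7hi PBS, 1861, 1764 and 1678 in B7low HDM and 2397 and 1975 in B7low PBS. The B7hi PBS libraries were the lowest of all, the B7hi HDM libraries came next, and every B7low library was above every B7hi library. After PBS, Il1rl1 averaged 531 ± 13.7 CPM in B7hi cells, against 2186 ± 299 CPM in B7low cells (SD, n = 2 each). The log2 fold change was −2.04 ± 0.30 (SE), a 4.11-fold lower level, with an adjusted p of 0.000678. All 20 alternatives gave this call, with log2 fold changes of −2.18 to −1.77. After HDM the means were 1114 ± 324 CPM in B7hi and 1768 ± 91.4 CPM in B7low cells (n = 3 each). The log2 fold change of −0.67 ± 0.24 there did not pass (adjusted p = 0.18), though the ranges did not overlap, as for 20.5% of all genes. The average over both challenges was −1.35 ± 0.19 (adjusted p = 0.000169), called in all 19 alternatives.

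With HDM the Il1rl1 level lay higher in B7hi cells and lower in B7low cells than with PBS, in neither case past the threshold. In B7hi cells all 3 HDM libraries were above both PBS libraries, with a log2 fold change of 1.07 ± 0.28, an unadjusted p of 0.0013 and an adjusted p of 0.33. DESeq2 gave 1.09 and called it (adjusted p = 0.0045). In B7low cells all 3 HDM libraries were below both PBS libraries, with a log2 fold change of −0.31 ± 0.26 (adjusted p = 0.76). Ranges that do not overlap were seen for 20.6% of all genes in B7hi and for 23.9% in B7low. The test of the difference itself, taking the HDM effect of B7low cells from the one in B7hi cells, gave 1.37 ± 0.38 with an unadjusted p of 0.0021 and an adjusted p of 0.28. No gene of the 10533 passed that test, while 8.55% had an unadjusted p under 0.05, and DESeq2, which called 41 genes in all, gave 1.44 for Il1rl1 with an adjusted p of 0.019.

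The counts are per symbol and do not separate the membrane and the secreted form of ST2. The GENCODE M21 annotation holds transcripts of Il1rl1 with 567 coding codons, which encode the membrane receptor, and with 337, which encode the soluble form that captures IL-33. Il1rap likewise has coding transcripts of 685, 640, 570 and 360 codons.

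Il1rap, the co-receptor for IL-33 and IL-1, had lower means in B7hi than in B7low cells, but its libraries overlapped. It had 22.5, 29.4 and 13.7 CPM in B7hi HDM, 25.7 and 19.3 in B7hi PBS, 74.5, 24.7 and 32.2 in B7low HDM and 69.9 and 18.4 in B7low PBS. The first library of each B7low group was high, and the other 3 B7low libraries lay within or just above the B7hi range. The log2 fold change was −0.97 ± 0.63 after PBS (adjusted p = 0.40) and −1.01 ± 0.52 after HDM (adjusted p = 0.42). The average over both was −0.99 ± 0.41 (adjusted p = 0.13), and only leaving out B7low PBS 2, alone or with B7hi HDM 2, brought a call among the alternatives (−1.32, adjusted p = 0.035, and −1.44, adjusted p = 0.032). For HDM over PBS the values were −0.09 in B7hi (95% interval −1.31 to 1.13) and −0.05 in B7low (−1.26 to 1.16).

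Il18r1, the IL-18-binding chain, was low in all libraries and lower in B7hi than in B7low cells on average. It had 20.6, 13.7 and 7.53 CPM in B7hi HDM, 8.31 and 4.70 in B7hi PBS, 55.6, 21.5 and 15.8 in B7low HDM and 33.2 and 15.0 in B7low PBS. The B7hi and B7low ranges were apart after PBS, as for 51.9% of all genes, and overlapped after HDM. Averaged over PBS and HDM the log2 fold change was −1.49 ± 0.47, just past the threshold (adjusted p = 0.048). Neither challenge alone gave a call, with −1.90 ± 0.75 after PBS (adjusted p = 0.15) and −1.09 ± 0.57 after HDM (adjusted p = 0.43). The averaged call held in 9 of 19 alternatives and in 3 of the 10 that leave out 1 library. It was lost under limma-voom and under library size alone, each of which called 2 of the 7 genes in the average. It was lost without B7hi PBS 1 (adjusted p = 0.090), B7hi PBS 2 (0.18), B7low PBS 1 (0.20), B7hi HDM 2 (0.067), B7hi HDM 3 (0.098), B7low HDM 1 (0.14) or B7low HDM 2 (0.052), and without B7low PBS 2 and B7hi HDM 2 together (0.054). For HDM over PBS, the fitted values were 1.12 ± 0.69 in B7hi and 0.31 ± 0.64 in B7low cells, and neither passed.

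Il18r1 begins 136 bp after the end of Il1rl1 on the same strand of chromosome 1. Its counts ran at 0.762 to 2.99 per 100 Il1rl1 counts over the 10 libraries, with a median of 1.22. The log2 levels of the 2 genes had a Pearson r of 0.84 across the 10 libraries, a description over libraries that share groups and depth. The counting step is not given in the sources used here, and the part of reads that run on from Il1rl1 in the Il18r1 counts was not tested.

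Il18rap, the IL-18 co-receptor, was highest in B7low cells after HDM and near the counting limit in B7low cells after PBS. It had 13.8, 19.6 and 10.3 CPM in B7hi HDM, 7.56 and 11.5 in B7hi PBS, 157, 30.6 and 27.2 in B7low HDM and 5.25 and 1.67 in B7low PBS. Each B7low HDM library was above all others. Between HDM and PBS in B7low cells, ranges did not overlap for 23.9% of all genes. Between the populations after HDM, this was so for 20.5%. Among the B7low HDM libraries, B7low HDM 1 was far above the rest. The 2 B7low PBS libraries rested on 3 counts and 1 count. Over summed counts the ratio for HDM over PBS in B7low cells was 15.6 (95% counting interval 6.01 to 57.9, from 206 and 4 counts). The fitted log2 fold change was 4.30 ± 0.97 with an unadjusted p of 0.000542 and an adjusted p of 0.21, and DESeq2 called it (4.33, adjusted p = 0.022). Without B7low HDM 1 it was 3.03 (adjusted p = 0.25). After PBS, B7hi against B7low cells gave 1.47 ± 1.11 (adjusted p = 0.48), with summed counts of 32 and 4. After HDM the same comparison gave −2.32 ± 0.64 (unadjusted p = 0.0026, adjusted p = 0.073). Without B7low HDM 1 that value was −1.04 (adjusted p = 0.57), while without B7low HDM 2 or B7low HDM 3 it passed, at −2.70 (0.042) and −2.73 (0.032). The difference between the HDM effects, B7hi minus B7low, was −3.78 ± 1.25 (unadjusted p = 0.0089, adjusted p = 0.46).

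Il1r1, the signalling IL-1 receptor, was barely detected. It had 0, 2 and 3 counts in B7hi HDM, 5 and 2 in B7hi PBS, 5, 3 and 0 in B7low HDM and 6 and 3 in B7low PBS, and was not tested. Pooled over libraries, that is 1.40 CPM in B7hi HDM (exact Poisson 95% interval 0.455 to 3.27), 2.16 in B7hi PBS (0.869 to 4.45), 2.07 in B7low HDM (0.895 to 4.09) and 7.69 in B7low PBS (3.52 to 14.6). These intervals hold counting error alone, because reads amplified with no molecular identifier need not come from separate molecules.

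Il1r2, the decoy receptor, was present in every B7hi library and in no B7low PBS library. It had 184, 84.2 and 168 CPM in B7hi HDM, 185 and 116 in B7hi PBS, 4.07, 14.3 and 63.2 in B7low HDM and 0 and 0 in B7low PBS. The lowest B7hi library was above the highest B7low library, and such ranges did not overlap for 9.40% of all genes. The 3 B7low HDM libraries spread widely below the B7hi range. After PBS the level was 151 ± 48.6 CPM in B7hi cells, at least 56.4-fold higher than in B7low cells when their 0 counts are set at 3 counts over the group (adjusted p = 0.038). The 95% counting interval of this ratio, from 468 and 0 counts, began at 45.7-fold, and without B7low PBS 1 or 2 the limit from 3 counts was 28.8-fold and 27.5-fold. The call held in 12 of 20 alternatives. It was lost without B7hi PBS 1 (adjusted p = 0.16), B7hi PBS 2 (0.11), B7low PBS 1 (0.13), B7low PBS 2 (0.16), B7hi HDM 1 (0.055) or B7hi HDM 3 (0.057), under limma-voom (0.16), and without B7low PBS 2 and B7hi HDM 2 together (0.15).

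After HDM, Il1r2 averaged 145 ± 53.7 CPM in B7hi and 27.2 ± 31.6 CPM in B7low cells. The log2 fold change of 2.34 ± 0.75 did not pass (adjusted p = 0.20). Without B7low HDM 3, the library at 63.2 CPM, it was 3.83 (adjusted p = 0.0017), and limma-voom gave 3.14 (adjusted p = 0.020). Over both challenges Il1r2 was called as higher in B7hi than in B7low cells (adjusted p = 0.011), in 15 of 19 alternatives, but not without B7hi PBS 1 (0.051), B7low PBS 1 (0.057), B7low PBS 2 (0.056) or B7low PBS 2 and B7hi HDM 2 together (0.055). For HDM over PBS, B7hi cells gave −0.03 (95% interval −1.81 to 1.76). In B7low cells the level after HDM was at least 12.6-fold higher than after PBS by the same limit, which did not pass (adjusted p = 0.46). The 95% counting interval of this ratio, from 125 and 0 counts, began at 10.1-fold. Of the 125 counts, 100 came from B7low HDM 3, and without that library the limit from 3 counts was 4.29-fold. Without B7low PBS 1 or 2 it was 6.46-fold and 6.18-fold. Of the summed Il1r1 and Il1r2 levels per kb of exon, Il1r2 made up 98.6% to 100% in the 5 B7hi libraries. In B7low cells the same share rested on few counts, such as 3 of Il1r2 and 5 of Il1r1 in B7low HDM 1, and 0 of Il1r2 and 9 of Il1r1 over both B7low PBS libraries.

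**Figure D2:**
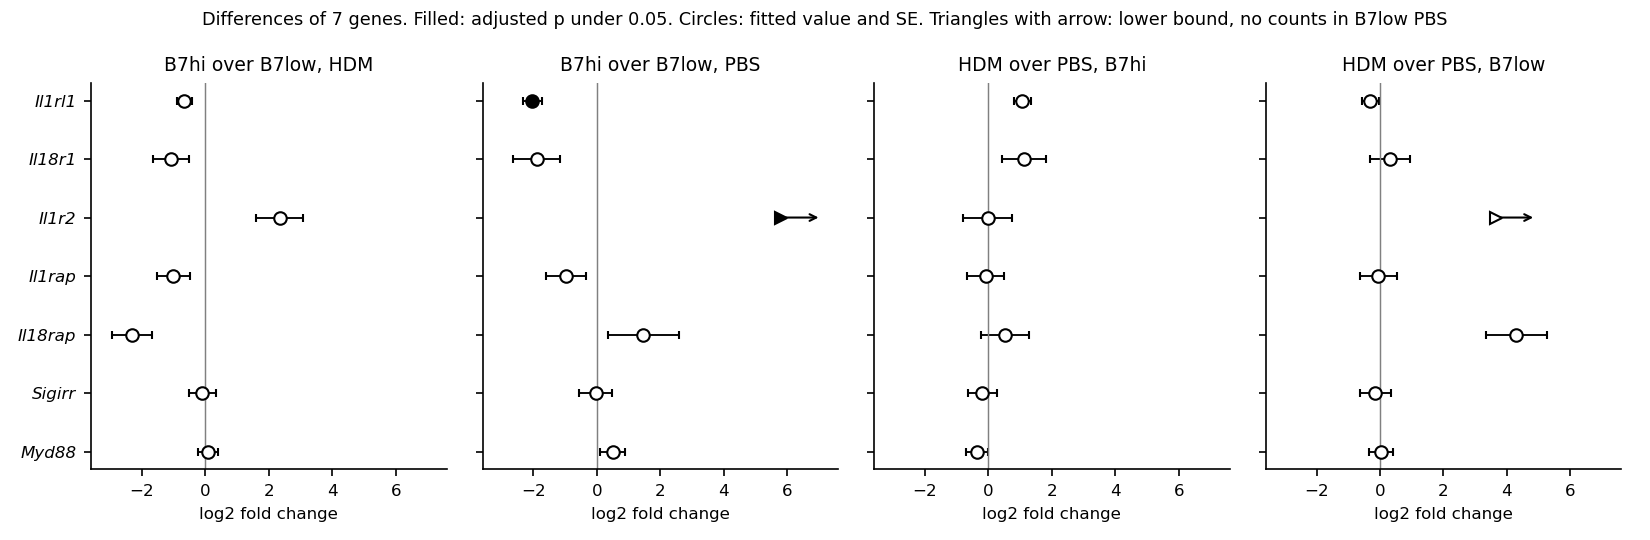
Fitted log2 fold change (horizontal axis) of the 7 genes tested (vertical axis), with its SE, for 4 comparisons, where a value right of 0 is higher in the group named first. Filled symbols pass an adjusted p of 0.05, which Il1rl1 (−2.04) and Il1r2 (at least 56.4-fold) did for B7hi over B7low after PBS. Triangles with arrows are lower bounds for Il1r2, which had no counts in B7low PBS.

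Sigirr and Myd88 passed in no comparison. Sigirr, which restrains IL-1 family receptors, had 36.3, 31.3 and 32.2 CPM in B7hi HDM, 31.0 and 45.4 in B7hi PBS, 17.6, 24.1 and 62.6 in B7low HDM and 42.0 and 36.8 in B7low PBS. The groups overlapped, and the log2 fold changes of B7hi over B7low were −0.04 after PBS (95% interval −1.14 to 1.06) and −0.09 after HDM (−0.97 to 0.79). For HDM over PBS they were −0.20 in B7hi (−1.17 to 0.77) and −0.14 in B7low cells (−1.16 to 0.88). Myd88, the adaptor, had 45.0, 33.3 and 48.6 CPM in B7hi HDM, 58.9 and 52.7 in B7hi PBS, 29.8, 46.2 and 44.2 in B7low HDM and 49.0 and 30.1 in B7low PBS. Both B7hi PBS libraries were above all others. Between the populations after PBS, ranges did not overlap for 51.9% of all genes. Between HDM and PBS in B7hi cells, this was so for 20.6%. For Myd88, B7hi over B7low gave 0.50 after PBS (−0.35 to 1.34) and 0.08 after HDM (−0.59 to 0.76). HDM over PBS gave −0.37 in B7hi (−1.10 to 0.36) and 0.04 in B7low (−0.75 to 0.83). These intervals do not show that either gene was equal between groups. Of the 4 Sigirr differences, the one between the populations after PBS turned sign under library size alone (0.24), a scaling that shifted the median of all genes by 0.27.

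Per length, Il1rl1 stood far above the chain it pairs with. In CPM per kb of exon, averaged over the 10 libraries, Il1rl1 was at 204 ± 93.1, Il1r2 at 43.0 ± 40.6, Myd88 at 17.0 ± 3.80, Sigirr at 11.8 ± 4.06, Il18rap at 4.21 ± 6.84, Il18r1 at 4.07 ± 3.13, Il1rap at 2.91 ± 1.88 and Il1r1 at 0.550 ± 0.516 (SD). This order did not hold within each group. In B7hi PBS, Il1r2 was at 79.0 ± 25.5 and Il1rl1 at 77.0 ± 1.99, and in B7low PBS Il1r2 had no counts and lay below the other 7. By the longest coding transcript in place of all exons, a choice made after seeing the data, Il1rap was at 7.44, above Il18r1 at 6.93 and Il18rap at 5.82. Il1rl1 was at 279 by that length, a smaller margin over Il1rap than by all exons, so the ratios below depend on the length used. Il1rl1 made up 61.9% to 94.9% of the counts of the 8 genes, least in B7hi PBS (61.9% and 68.3%) and most in B7low PBS (91.95% and 94.9%). The ratio of Il1rl1 to Il1rap per kb ranged over the libraries between 33.4 and 177, with a median of 74.1. Its lowest values were 33.4 in B7hi PBS 1, 41.1 in B7low HDM 1 and 46.1 in B7hi PBS 2. Il18rap over Il18r1 per kb was 0.476, 1.02 and 0.973 in B7hi HDM, 0.649 and 1.74 in B7hi PBS, 2.02, 1.02 and 1.23 in B7low HDM and 0.113 and 0.0793 in B7low PBS. This ratio was lowest in the 2 B7low PBS libraries, where it rested on few counts. Il18rap had 3 and 1 counts there, and Il18r1 had 19 and 9.

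Of the 8 genes, 5 lie in a row on the plus strand of chromosome 1, within 477.627 kb on GRCm38. They are Il1r2 (40074079 to 40125231), Il1r1 (40225080 to 40317257), Il1rl1 (40429570 to 40465415), Il18r1 (40465552 to 40500854) and Il18rap (40515362 to 40551705). Il1rl2, the IL-36 receptor chain, lies between Il1r1 and Il1rl1 and had 1, 1, 8 and 1 counts in B7hi HDM, B7hi PBS, B7low HDM and B7low PBS, too few to test. Il1rap is on chromosome 16 (26581704 to 26730117, plus strand), Sigirr on chromosome 7 (141091175 to 141100572, minus) and Myd88 on chromosome 9 (119335934 to 119341411, minus). Within the cluster the differences did not point one way. Il1r2 at one end was higher and Il1rl1 lower in B7hi than in B7low cells after PBS, and Il1r1 between them had at most 6 counts in any library.

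**Figure D3:**
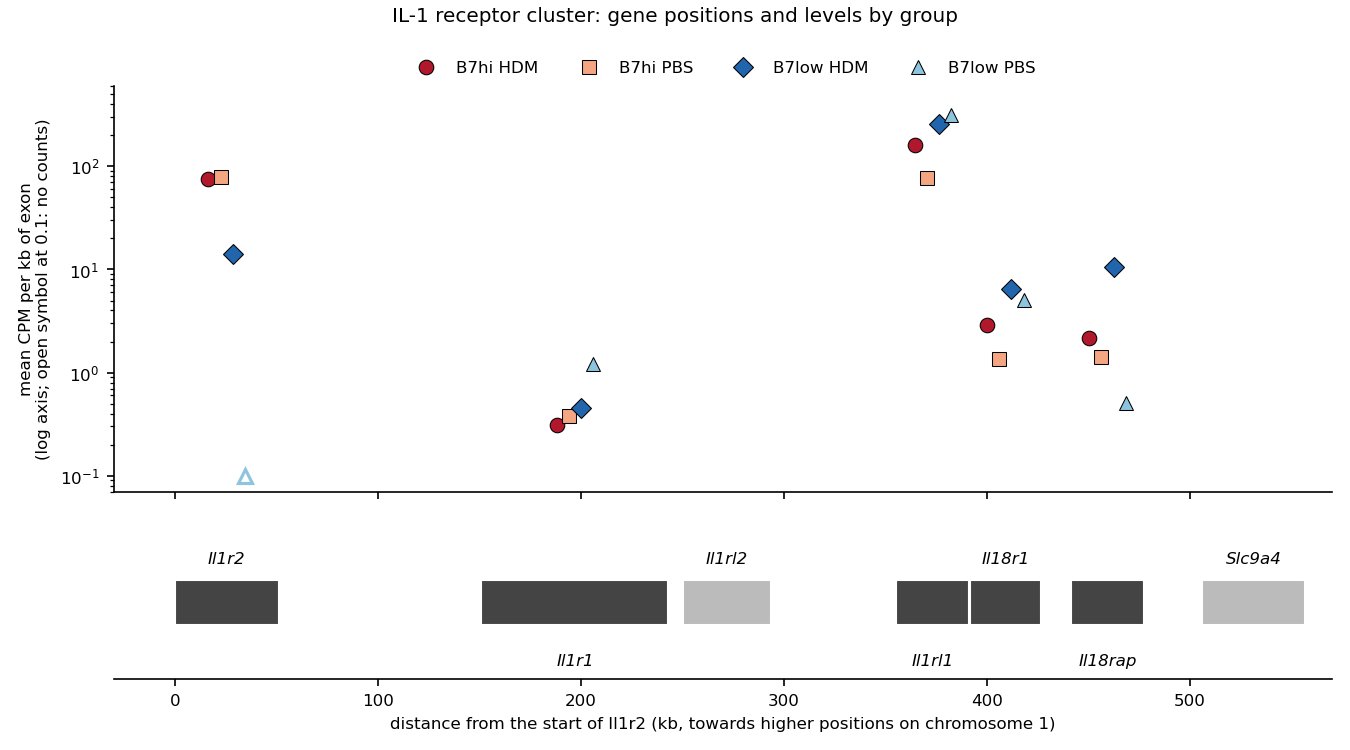
Upper panel: group mean in CPM per kb of exon (log axis) of the 5 receptor genes of the cluster, at their place along chromosome 1 (horizontal axis, kb from the start of Il1r2; symbols of 1 gene are spread sideways for sight). Lower panel: the gene bodies, dark for the 5 genes and grey for neighbours. Il1r2 is at 76.2 and 79.0 in B7hi HDM and B7hi PBS and 14.2 in B7low HDM, with no counts in B7low PBS (open symbol), while Il1rl1 is at 162, 77.0, 256 and 317 in B7hi HDM, B7hi PBS, B7low HDM and B7low PBS.

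The genes whose log2 levels followed Il1rl1 most closely over the 10 libraries, among 9957 tested genes outside predicted models, were Adora3 (r = 0.99), Cobl (0.99), Maob (0.98), Mlph (0.98) and Cd200r3 (0.97). Adora3, the adenosine A3 receptor, averaged 91.4 ± 25.9 CPM in B7hi HDM, 33.0 ± 0.65 in B7hi PBS, 203 ± 27.8 in B7low HDM and 314 ± 49.8 in B7low PBS, the same order of groups as Il1rl1. Cd200r3, an activating receptor of mast cells and basophils, averaged 161 ± 71.5, 44.6 ± 18.2, 419 ± 90.6 and 482 ± 20.0 CPM in the same groups. Il1r2 was most like Nono (0.98), an RNA-binding protein gene, Atg4b (0.98), an autophagy protease gene, and Pla2g16 (0.97), a phospholipase gene that averaged 42.0 ± 2.65 CPM in B7hi HDM, 40.9 ± 0.966 in B7hi PBS, 19.4 ± 8.59 in B7low HDM and 5.09 ± 2.26 in B7low PBS. For Il1rap the closest was Impact (0.95), for Il18rap Mast4 (0.94) and the scavenger receptor gene Cd36 (0.93), for Sigirr Ankrd27 (0.90) and for Myd88 Recql5 (0.96). These are the highest of 9957 correlations for each gene over libraries that share groups, given as a description.

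Transcripts of the ligands were scarce in the sorted cells. Il33 had 3, 2, 1 and 5 counts in B7hi HDM, B7hi PBS, B7low HDM and B7low PBS, and Il18 had 4, 17, 8 and 12. Il1b averaged 64.5 ± 94.5 CPM in B7low HDM, where 1 library reached 173 CPM, and 1.71 ± 1.90 in B7hi HDM, 2.91 ± 3.37 in B7hi PBS and 4.33 ± 3.76 in B7low PBS. Il1rn, the IL-1 receptor antagonist, had 6, 0, 0 and 2 counts. Of 15 ligand and antagonist symbols 11 were in the table and 2 (Il18 and Il1b) were tested, and neither passed in any comparison.

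Among the kinases and scaffolds that carry the signal from MyD88 to the IKK complex, Ikbkb was higher and Irak2 lower in B7hi than in B7low cells. Of the 18 genes of this list 16 were tested, and 1 was higher and 1 lower in B7hi than in B7low cells after PBS, the same 2 as in the average over both challenges, with 0 called after HDM and 0 for HDM over PBS. These 2 of 16 stand beside 6.54% of all genes called after PBS and 11.9% in the average. The median log2 fold change of the 16 was 0.01 after PBS, beside 0.03 over all genes. Ikbkb, the catalytic IKK-beta subunit, averaged 157 ± 3.04 CPM in B7hi HDM and 162 ± 39.8 in B7hi PBS, against 95.8 ± 7.17 in B7low HDM and 78.6 ± 2.36 in B7low PBS. Its averaged log2 fold change was 0.88 ± 0.18 (adjusted p = 0.0048), and 0.74 without B7hi PBS 1 (adjusted p = 0.055). Irak2, a kinase that sustains signalling after MyD88 assembly, averaged 31.5 ± 6.82 CPM in B7hi HDM and 20.2 ± 13.6 in B7hi PBS, against 63.6 ± 25.5 in B7low HDM and 70.1 ± 0.21 in B7low PBS. Its averaged value was −1.40 ± 0.32 (adjusted p = 0.0093), and −1.13 without B7hi PBS 1 (adjusted p = 0.060). The calls of both genes after PBS alone (adjusted p = 0.041 for Ikbkb and 0.046 for Irak2) held in 1 and 3 of the 10 fits that leave out 1 library, and without B7hi PBS 1 the adjusted p was 0.36 for each.

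Of 20 NF-kB and MAP kinase genes, all tested, 1 was higher and 1 lower in the average over both challenges and 0 in every other comparison. These 2 of 20 stand beside 11.9% of all genes, and the median of the average was 0.18, beside 0.03 over all genes. Map2k3, a p38 activator, was higher in B7hi cells (1.06 ± 0.26, adjusted p = 0.016), and Tnfaip3, the NF-kB feedback inhibitor A20, was lower (−0.96 ± 0.23, adjusted p = 0.012). Both lost the call without B7hi PBS 1 (adjusted p = 0.099 and 0.094) or B7low PBS 1 (0.085 and 0.064). Of 18 Toll-like receptor and partner genes, which share MyD88, 7 were tested and 1 was called, in the same average, beside the same 11.9% of all genes. Tlr4, the endotoxin receptor, was lower in B7hi cells, at 6.24 ± 5.02 CPM in B7hi HDM and 3.34 ± 0.45 in B7hi PBS, against 20.8 ± 6.30 in B7low HDM and 20.7 ± 12.7 in B7low PBS (−2.19 ± 0.58, adjusted p = 0.021). It lost the call without B7hi PBS 1 (0.088), B7hi PBS 2 (0.071) or B7low PBS 1 (0.10).

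Mediator genes of activated mast cells, the outputs of these receptors, were called in both directions. Of 17 such genes 13 were tested. In B7hi against B7low cells 3 were higher (Il6, Ccl4 and Areg) and 2 lower (Ccl2 and Hdc), both after PBS and on average. These 5 of 13 stand beside 6.54% of all genes called in either direction after PBS and 11.9% in the average. After HDM 0 of the 13 were called, beside 2.84% of all genes. The median log2 fold change of the 13 was 1.52 after PBS, with or without Areg at its bound. It was 0.48 after HDM, beside 0.03 over all genes in each case. Il6 averaged 418 ± 44.6 CPM in B7hi HDM and 183 ± 1.16 in B7hi PBS, against 299.8 ± 134 in B7low HDM and 56.2 ± 12.7 in B7low PBS. It rose with HDM in B7low cells (2.40 ± 0.36, adjusted p = 0.041) and was the 1 gene of all called there, a call that held in 10 of 20 alternatives and in 4 of the 10 without 1 library (adjusted p 0.22 without B7low PBS 2, 0.069 without B7low PBS 1, 0.070 without B7low HDM 1, and 0.062, 0.071 and 0.091 without B7hi HDM 1, 2 or 3). The monocyte chemokine gene Ccl2 averaged 274 ± 255 CPM in B7hi HDM and 70.7 ± 33.7 in B7hi PBS, against 1351 ± 529.7 in B7low HDM and 1698 ± 909 in B7low PBS, an averaged log2 fold change of −3.43 ± 0.59 (adjusted p = 0.0080). Ccl4, another chemokine gene, was higher in B7hi cells by 1.51 ± 0.33 (adjusted p = 0.0096), and Hdc, the histamine-forming enzyme gene, was lower in B7hi cells, at −1.15 ± 0.27 (adjusted p = 0.011). Hdc falls outside the naming rule of up to 4 genes and is named after its values were seen. Areg, the gene of the growth factor amphiregulin, had 15.5 ± 1.96 CPM in B7hi HDM and 15.6 ± 13.4 in B7hi PBS, against 3.89 ± 3.15 in B7low HDM and 0 in both B7low PBS libraries. Under limma-voom the averaged calls of Ccl4 (adjusted p = 0.069) and Areg (0.068) were lost. That test also lost the PBS calls of Ccl4 (0.11), Hdc (0.080) and Areg (0.30). Over all alternatives, the calls after PBS held in 19 of 20 for Il6 and in 15 of 20 for Ccl2 and for Ccl4. They held in only 10 of 19 for Areg and 8 of 20 for Hdc. The Il6 call for HDM over PBS in B7low cells was lost under limma-voom (0.33) and with DESeq2 size factors (0.055). After PBS alone all 5 lost the call without B7low PBS 1 (adjusted p = 0.071 for Il6, 0.11 for Ccl4 and Areg, 0.10 for Ccl2 and 0.22 for Hdc). The averaged call was lost without B7hi PBS 1 for Ccl2 (adjusted p = 0.073), without B7low PBS 1 or 2 for Ccl4 (0.062 and 0.070), without B7hi PBS 2 or B7low PBS 1 for Hdc (0.059 and 0.064) and without B7hi PBS 2 for Areg (0.068).

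Markers of other cell types varied between the libraries. Il1r2 is also known from neutrophils, and their part in its level was not tested. Of the neutrophil markers, S100a8 had 0 counts in all 10 libraries, S100a9 had 1 count in all and Cxcr2 averaged 22.1 ± 18.2 CPM in B7hi HDM, 7.43 ± 0.176 in B7hi PBS, 27.3 ± 24.5 in B7low HDM and 33.8 ± 23.1 in B7low PBS. The 10 neutrophil markers in the table summed to 15.1 to 54.8 CPM in B7hi HDM, 21.4 to 27.2 in B7hi PBS, 9.48 to 74.5 in B7low HDM and 19.2 to 75.2 in B7low PBS. The 13 markers of T cells, NK cells and innate lymphoid cells in the table summed to 213 to 552 CPM in B7hi HDM, 630.3 to 706 in B7hi PBS, 117 to 314 in B7low HDM and 149 to 192 in B7low PBS, and Nkg7, a cytotoxic granule gene among them, averaged 246 ± 107, 484 ± 51.5, 116 ± 98.0 and 80.2 ± 61.5 CPM in these groups. Cd3e, which defines T cells, averaged 3.36 ± 4.31, 7.31 ± 10.3, 0.21 ± 0.36 and 0.84 ± 1.18 CPM. Il7r, another of the 13, overlapped between B7hi and B7low libraries after PBS and after HDM. After PBS it was at 56.7 and 31.3 CPM in B7hi and at 96.2 and 33.4 in B7low libraries. The 6 basophil markers, of which mast cells express several, summed to 3065 to 5461 CPM in B7hi HDM, 3297 to 4863 in B7hi PBS, 2708 to 4383 in B7low HDM and 2252 to 2856 in B7low PBS. Mcpt8, the basophil protease gene, averaged 1220.2 ± 370.3 CPM in B7hi HDM and 764 ± 103 in B7hi PBS, against 278 ± 169 in B7low HDM and 123 ± 92.8 in B7low PBS. Cd200r3, another of the 6, went the other way, at 161 and 44.6 CPM in B7hi HDM and B7hi PBS. It averaged 419 and 482 CPM in B7low HDM and B7low PBS. Within B7low HDM the library with the most Il1r2, number 3, also had the highest lymphoid and basophil sums, and its part in the result was not tested.

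B7low HDM 1, the library with 157 CPM of Il18rap, had the highest endothelial sum of all, 502 CPM over 7 markers, against 99.2 and 183 in the other B7low HDM libraries. The other groups ranged between 114 and 160.0 CPM in B7hi HDM, 119.6 and 134 in B7hi PBS and 59.4 and 174 in B7low PBS. B7low HDM 1 also had the highest B cell sum, 565 CPM over 6 markers, beside 362 and 79.0 in B7low HDM 2 and 3 and at most 65.3 elsewhere. All 3 B7low HDM libraries had more Il18rap than any other library, and each also had a higher B cell sum than any library of the other groups. The part of these cell types in the Il18rap level was not tested.

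**Figure D4:**
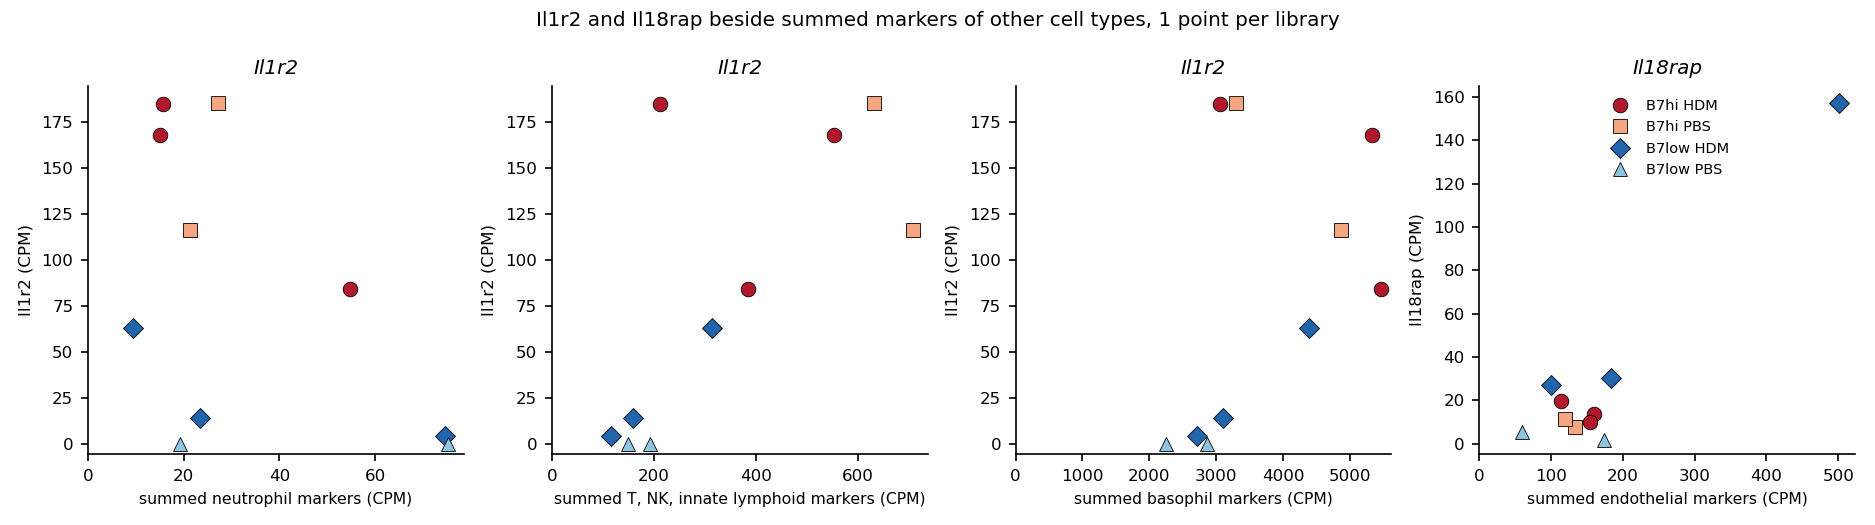
Level of Il1r2 (first 3 panels) or Il18rap (last panel) in CPM (vertical axis) against the summed CPM of markers of another cell type (horizontal axis), 1 point per library, with symbols by group. The neutrophil sums, which include Cxcr2, run over 15.1 to 54.8 CPM in B7hi and 9.48 to 75.2 CPM in B7low libraries, and the B7low HDM library at 157 CPM of Il18rap is also the one at 502 CPM of endothelial markers.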

How the data were processed

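Deposited values were raw counts per gene symbol for 22815 symbols in 10 libraries, made by the authors from poly(A)+ SmartSeq2 libraries read paired-end at 25 nt, per the labels' protocols. TopHat2 2.0.10, Cufflinks 2.2.1, DESeq2 and the mm10 build appear, with no roles, in the submitters' processing notes. The counting step, strand setting and annotation are not stated there. Of the symbols, 3029 had no count.

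Counts were filtered (filterByExpr, at least 10 counts as its base setting), scaled by TMM and tested with edgeR 4.0.16's quasi-likelihood test (R 4.3.3, robust, 1 mean for each of the 4 groups, 6 contrasts), with Benjamini-Hochberg adjustment over 10533 genes and a threshold of 0.05. Tested genes held 98.2% to 99.5% of counts, and the common biological coefficient of variation was 0.359. The SE of a log2 fold change is its size divided by the square root of F. CPM use the TMM-scaled library size, and levels per kb use the exon union of GENCODE M21. A count of 0 was given a limit of 3 counts. The test was checked on simulated data with the same spread for all genes and with changes set only in the more abundant genes. That check does not cover low genes or a group with no counts.

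Genes and lists were chosen with earlier results of these data known. All 8 genes are named, with up to 4 called genes per list and contrast by p, and the 5 genes most like each gene averaging at least 20 CPM (Pearson r of log2 CPM, prior count 2), of which the text gives some. Il18r1 and Il1r1 were under that level.

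Alternatives were DESeq2 1.42.0 (its test, and its size factors), limma-voom (limma 3.58.1), library size alone, no filter, a filter of 5 CPM in 2 libraries, Rn45s left out, only the groups compared, a replicate block, each library left out, and B7low PBS 2 with B7hi HDM 2 left out. The length of the longest coding transcript and the Il1r2 fold limits without a library were added after seeing the data. Whether replicate numbers pair the samples is not known, and the main fit used no pairing. Correlations of same-numbered libraries cannot settle it, because with 2 libraries in a group the deviations from the group mean mirror each other.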

Additional observations from a re-analysis of the deposited data

Results flagged for a closer look

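Il1rl1, the IL-33 receptor chain, stood out because its HDM and PBS libraries lay apart in both populations, in opposite directions. Every B7hi HDM library (792 to 1439 CPM) was above every B7hi PBS library (521 and 541 CPM), and every B7low HDM library (1678 to 1861 CPM) was below every B7low PBS library (1975 and 2397 CPM). Such ranges were seen for 20.6% of all genes in B7hi and 23.9% in B7low. The share with both, in opposite directions, was not computed. The B7low change was small, at −0.31 ± 0.26 (edgeR, adjusted p = 0.76). Il1rl1 was picked by this pattern, so the p-values below describe it and do not test it anew. Taking the HDM effect of B7low cells from the one in B7hi cells left 1.37 ± 0.38 on the log2 scale, with an unadjusted p of 0.0021 and an adjusted p of 0.28 in edgeR's test. DESeq2 gave 1.44 with an adjusted p of 0.019, and over all 19 alternatives the value ranged between 1.07 and 1.63. The same difference of effects had an unadjusted p of 0.030 for Il1r2 and 0.0089 for Il18rap, with adjusted p-values of 0.54 and 0.46.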

How the results depend on the processing

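Il1rl1 kept its direction in all 4 comparisons of groups and its call as lower in B7hi after PBS under every alternative run. The count of the 7 genes called was 2 after PBS, and it was 1 under limma-voom and 1 without B7low PBS 2 and B7hi HDM 2. For B7hi over B7low after HDM it was 0, and it was 1 under DESeq2, 2 under limma-voom, 1 with no filter and 1 with the replicate block (Il1r2, 2.66, adjusted p = 0.035). It was 1 under DESeq2 for HDM over PBS in B7hi, and 1 under DESeq2 and 1 with no filter both for HDM over PBS in B7low and for the difference between the HDM effects, against 0. Leaving out 1 library gave 1 to 2 calls after PBS, 0 to 2 after HDM and 1 to 3 in the average. The block changed no other call of these genes. The correlations of same-numbered libraries ran between −0.112 and 0.188. Over all genes, calls with edgeR, DESeq2, limma-voom and no filter were 689, 907, 514 and 1078 after PBS, 299, 507, 354 and 548 after HDM, 1, 54, 11 and 89 for HDM over PBS in B7hi, 1, 19, 0 and 112 in B7low, 0, 41, 0 and 143 for the difference of HDM effects, and 1251, 1411, 1078 and 1592 in the average. Leaving out 1 library gave 226 to 685 after PBS, 137 to 368 after HDM, 0 to 11 and 0 to 13 for HDM over PBS in B7hi and B7low, 0 to 3 for the difference and 659 to 1163 in the average, and using only the PBS groups gave 370 after PBS. Per kb of the longest coding transcript, Il1rap was at 7.44, Sigirr at 18.05 and Myd88 at 22.3 CPM.

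Signs of log2 values that passed under no setting turned as follows. DESeq2 size factors gave Myd88 −0.0096 (HDM over PBS, B7low), and Il1rap 0.018 and Sigirr 0.017 (difference of HDM effects). Library size alone, which shifts the median of all genes by 0.27 after PBS and by −0.29 in the difference of effects, gave Sigirr 0.24 (PBS) and 0.056 (average) and Il1rap 0.094 (HDM over PBS, B7low). The DESeq2 test gave Myd88 −0.0067 (HDM over PBS, B7low), and Il1rap 0.020 and Sigirr 0.027 (difference). Limma-voom gave Sigirr 0.23 (HDM), 0.28 (difference) and 0.089 (average) and Il1rap 0.067 (HDM over PBS, B7low). No filter gave Sigirr 0.068 (PBS). Without B7low PBS 2 and B7hi HDM 2, Il1r2 was 0.21 (HDM over PBS, B7hi), Il18r1 −0.16 and Myd88 −0.26 (HDM over PBS, B7low), and Il1rap 0.42 and Sigirr 0.052 (difference). The replicate block gave Sigirr 0.091 (HDM), 0.14 (difference) and 0.022 (average), Il1rap 0.083 and 0.23 (HDM over PBS, B7hi and B7low) and Myd88 −0.023 (HDM over PBS, B7low).

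Leaving out 1 library moved Il18r1 over −0.37 to 1.02 (HDM over PBS, B7low), Il18rap over −0.71 to 0.21 (average) and Il1r2 over −0.33 to 0.33 (HDM over PBS, B7hi). Il1rap ranged over −1.62 to 0.32 (PBS), −0.31 to 0.21 and −0.71 to 1.24 (HDM over PBS, B7hi and B7low) and −1.34 to 0.61 (difference). Myd88 ranged over −0.074 to 0.19 (HDM) and −0.26 to 0.47 (HDM over PBS, B7low). Sigirr ranged over −0.36 to 0.22 (PBS), −0.38 to 0.65 (HDM), −0.45 to 0.11 and −0.92 to 0.14 (HDM over PBS, B7hi and B7low), −0.33 to 0.74 (difference) and −0.22 to 0.28 (average). The cause of these changes was not tested. Groups of 2 and 3 libraries, and 3 counts standing for up to 5.87 CPM, limit what can be said of Il1r1, Il18r1 and Il18rap.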
